A study of Mus musculus with 2 samples.

Results

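Cytochrome P450 genes are described here as 10 genes of mouse kidney cortex. In the wild-type library each had its highest level in a group of proximal tubule (PT) cells. The 10 are Cyp4a14, Cyp4a10, Cyp4a12a, Cyp4a31, Cyp4b1, Cyp2a4, Cyp2a5, Cyp2e1, Cyp2j5 and Cyp7b1. They were picked by symbol from 31053 genes in the feature list, which holds 98 P450 genes by symbol, and all 10 were found and had UMIs. They were picked with their levels by cell type and their difference between the libraries already known, so both are given as descriptions and carry no test. The study counted single-cell RNA from kidney cortex of mice aged 16 weeks, with 1 library labelled PT-I_Ppo (called PT I-PpoI here) and 1 labelled Wild-Type. I-PpoI is a homing endonuclease that cuts DNA at a long recognition site, and the series title places its expression in the proximal tubular epithelium. The labels name neither the driver of the enzyme, nor the strain, sex or number of animals behind a library. Neither I-PpoI nor Cre was among the counted genes (0 entries), so the transgene could not be read.

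P450 enzymes are heme proteins that insert oxygen into lipids, steroids and foreign compounds, and in the endoplasmic reticulum they take electrons from the reductase Por and, for some, from cytochrome b5. The Cyp4a enzymes hydroxylate the end of fatty acid chains, a step by which some of them, not all, turn arachidonic acid into the vasoactive lipid 20-HETE. Several Cyp4a genes are classical targets of the fatty acid receptor PPARA. In rodent kidney many P450 genes differ between the sexes and along the PT, whose segments S1, S2 and S3 run from the glomerulus to the outer medulla.

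The members lay at 5 sites of the genome (GRCm38 coordinates). Cyp4a12a, Cyp4a14, Cyp4a10, Cyp4a31 and Cyp4b1 stood in 1 block of 349 kb (chr4:115299046-115647723), in which all 8 protein-coding genes were P450 genes. Cyp2j5 (chr4:96628773-96664154) lay apart on the same chromosome. Cyp2a4 (chr7:26307169-26315088) and Cyp2a5 (chr7:26835305-26843548) lay 520 kb apart, with Cyp2e1 (chr7:140763739-140774987) far from them, and Cyp7b1 was on chromosome 3 (chr3:18071950-18243338). The libraries read the 3′ ends of transcripts, so near-identical ends could be confused. In the last 500 bases of its transcript, Cyp4a12a shared 30.2% of its 90-base runs with Cyp4a12b, so its counts are uncertain. Cyp2a4 shared 9.73% with Cyp2a5, and Cyp2a5 shared 1.70% with Cyp2a4. The other 7 members shared 0 such runs with any other P450 gene, although the ends of Cyp4a10 and Cyp4a31 were 93.0% identical.

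Cyp2a4 and Cyp2a5 are shown by sequence because their promoters were nearly the same while their levels parted in S3-like PT cells. The steroid hydroxylase gene Cyp2a4 and the coumarin hydroxylase gene Cyp2a5 had 97.6% identity over the 250 bases before the RefSeq start (245 of 251 aligned columns, from RefSeq on GRCm38). The windows run 5′ to 3′ on the plus strand, at chr7:26306942-26307191 and chr7:26835089-26835338. Capitals mark the 4 bases that differ and the 1 base by which each window overhangs the other.
Cyp2a4: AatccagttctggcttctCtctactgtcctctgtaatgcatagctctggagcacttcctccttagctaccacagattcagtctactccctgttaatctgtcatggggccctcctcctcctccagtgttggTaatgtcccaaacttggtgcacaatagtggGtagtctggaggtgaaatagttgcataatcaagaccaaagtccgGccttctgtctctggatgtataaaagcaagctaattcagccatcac
Cyp2a5: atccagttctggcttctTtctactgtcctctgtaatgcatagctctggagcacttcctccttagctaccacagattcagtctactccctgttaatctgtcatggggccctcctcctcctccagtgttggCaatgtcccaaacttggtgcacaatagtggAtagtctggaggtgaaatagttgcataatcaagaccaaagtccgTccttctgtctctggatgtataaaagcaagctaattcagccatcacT
Over the 300-base windows of the promoter table, which reach 50 bases past the start, both held TATAAA (in 13.6% of 32851 promoters), GTTAAT (7.10%) and AAAGTCC (4.21%), each searched on both strands. Neither held the PPAR direct repeat, 2 copies of AGGTCA 1 base apart, which was in 0.0396% of promoters. The table held promoters for 5 of the 10 members, the others with one being Cyp4b1, Cyp2e1 and Cyp2j5. TATAAA was also in the windows of Cyp2e1 and Cyp2j5, and AGGTCA in that of Cyp2j5. A match to these letters is a description and does not show that a factor binds.

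Unique molecular identifiers (UMIs, 1 per RNA molecule caught) summed to 93257620 for PT I-PpoI and 107977310 for wild type. Filtering kept 5125 and 11974 cells with medians of 11110 and 2690 UMIs, and 22 barcodes were kept in both libraries. In each pair of values PT I-PpoI comes before wild type unless named. A level in CPM is a gene's UMIs per 1000000 UMIs, summed over the cells of a group, with no scaling by length since each molecule is counted once at its 3′ end. Brackets hold 95% Poisson intervals for levels and exact conditional binomial intervals for log2 ratios (PT I-PpoI over wild type). These cover counting error only and treat UMIs as independent, and nothing here measures the spread between animals. Both libraries held the Y-linked genes Ddx3y, Uty, Kdm5d and Eif2s3y (1012 to 4194 UMIs each) and 6 UMIs of Xist each.

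PT-like cells numbered 171 (3.34% of cells) and 5916 (49.4%), in 8 of 34 clusters that were formed without any P450 gene. All 12 PT markers were read in them in both libraries, with summed levels of 13877 and 15976 CPM. Clusters 8 and 9 were S1-like by early-segment carriers such as Slc5a2 and Slc5a12, and made up 85.4% and 34.4% of the PT-like cells. Cluster 30 was S3-like (2 and 274 cells; led by Slc22a7 and Napsa). Clusters 22 (2 and 461 cells; Slc22a8, Slc22a6), 23 (9 and 871; Slco1a1, Slc7a13), 31 (0 and 703; Inmt, Kap), 32 (8 and 84) and the shallow cluster 7 (4 and 1489 cells, led by Lars2) had no single leading segment. The summed S2 markers stood at 448 and 1562 CPM in PT-like cells, and the S3 markers at 1305 and 3605 CPM.

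Along the wild-type PT the members fell into 3 patterns, seen in the plot of members by PT-like cluster. Cyp4a14, Cyp4a10, Cyp4b1, Cyp2a5, Cyp2e1, Cyp2j5 and Cyp4a31 were highest in cluster 23, the cells led by Slco1a1 and Slc7a13. Cyp2a4 and Cyp7b1 were highest in the S3-like cluster 30, and Cyp4a12a was highest in cluster 22. The S1-like clusters 8 and 9 were low for most of them, and over the 7 clusters of 100 or more wild-type cells the highest level was from 2.64 times (Cyp2j5) to 717 times (Cyp7b1) the lowest.

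**Figure D1:**
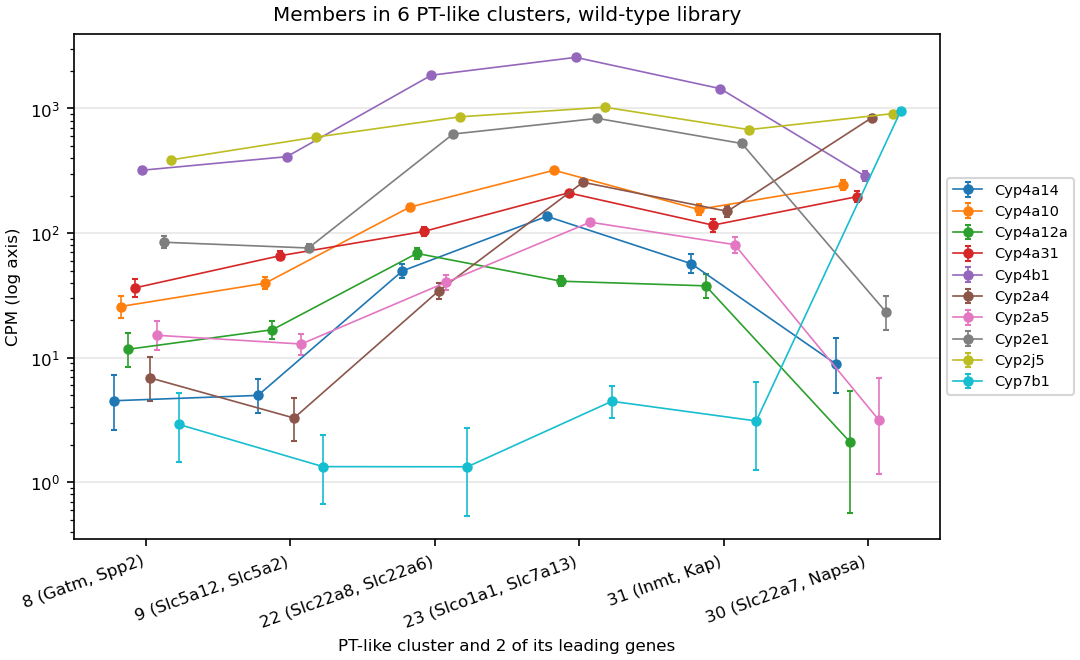
Levels (CPM, log axis) of the 10 members in 6 PT-like clusters of the wild-type library, with 95% Poisson intervals. Lines join the points of 1 gene and imply no measured order. Cyp7b1 and Cyp2a4 peak in cluster 30 (955 and 843 CPM), where Cyp2a5 and Cyp4a12a are lowest (3.15 and 2.10 CPM).

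Among the fatty acid omega-hydroxylase genes, Cyp4a14 stood at 136 CPM (129 to 144) in cluster 23, at 56.8 in cluster 31 and 49.7 in cluster 22, and below 10 CPM in clusters 8 (4.51), 9 (4.98) and 30 (8.92). Its neighbour Cyp4a10 stood at 319 CPM (309 to 330) in cluster 23 and 241 (220 to 265) in cluster 30, against 25.7 in cluster 8. Cyp4a31, next along the chromosome, followed Cyp4a10, with 210 CPM (202 to 219) in cluster 23 and 196 (177 to 217) in cluster 30, and those 2 levels did not differ beyond counting error. So of the 3 neighbouring genes, Cyp4a10 and Cyp4a31 were high in the S3-like cells and Cyp4a14 was low there. Cyp4a12a, a hydroxylase known to depend on androgen, reached 68.7 CPM (61.8 to 76.2) in cluster 22 and stood at 41.1 in cluster 23. Cyp4b1, which oxidizes short fatty acids and foreign compounds, was at 2571 CPM (2540 to 2602) in cluster 23, 1848 in cluster 22, 1444 in cluster 31 and 288 in cluster 30.

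Cyp2a4 stood at 843 CPM (803 to 886) in the S3-like cluster 30 and 256 (246 to 266) in cluster 23. Cyp2a5 had the reverse order, at 3.15 CPM (1.16 to 6.85) in cluster 30 and 122 (116 to 129) in cluster 23, so the pair with nearly identical promoters shown above parted in cluster 30. Elsewhere along the PT they ran alike, both higher in clusters 23 and 31 (Cyp2a4 256 and 149.5 CPM, Cyp2a5 122 and 80.8 CPM) than in the S1-like clusters. Cyp7b1, which hydroxylates oxysterols and neurosteroids, was nearly limited to 1 of the PT-like clusters, with 955 CPM (912 to 1000) in cluster 30 and at most 7.31 CPM in the other PT-like clusters. Cluster 30 held 95.2% of the Cyp7b1 UMIs of wild-type PT-like cells. The ethanol-metabolizing gene Cyp2e1 stood at 833 CPM (815 to 850) in cluster 23, 623 in cluster 22 and 23.1 in cluster 30. The arachidonic acid epoxygenase gene Cyp2j5 was the most even member, from 387 CPM in cluster 8 to 1024 in cluster 23, with 911 in cluster 30.

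Over 22 clusters of 100 or more wild-type cells, levels of the members on the log2(CPM + 10) scale were correlated as a description. These clusters share 1 library and its free RNA, and no p is given. The 28 pairs that leave out Cyp2a4 and Cyp7b1 had Pearson r from 0.70 to 0.97, the highest being Cyp4a10 with Cyp4a31. The 9 pairs with Cyp7b1 ran from -0.27 to 0.60, the highest with Cyp2a4. By the rule for like genes (3 per member, over the same clusters, no P450), Cyp4a14 was closest to Nat8f5 (r = 0.96), Slc22a6 (0.95) and Dpys (0.94). The organic anion carrier gene Slc22a6 was also among the 3 for Cyp4a12a, Cyp4b1, Cyp2a5 and Cyp2e1 (0.94 to 0.98). Cyp4a10 and Cyp4a31 were both closest to the fatty acid transport gene Slc27a2 (0.98 for each). Cyp2a4 was closest to Acsm3 (0.98), Tmigd1 (0.97) and Mogat1 (0.96), and Cyp7b1 to Slco4c1 (0.96), Bcat1 (0.91) and Ceacam2 (0.91). Among the genes closest to Cyp2j5 were Hykk and Tmem174 (0.99 for each).

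Outside the PT, a few members were read at clear levels. In wild type all 10 members had their highest level in a PT-like cluster over 20 groups of 50 or more cells, and for 8 of them the interval did not overlap the next group's. In PT I-PpoI clusters 8 to 32 of the PT held few cells and only cluster 9 had 50 or more. There 5 of 10 members had their highest level in that cluster over 13 groups. Of these only the interval of Cyp2j5 did not overlap the next group's, and Cyp7b1 was highest in principal cells. Free RNA bears on wild type more, since barcodes of 100 or fewer UMIs held 496 CPM of Cyp4b1 there and 35.7 CPM in PT I-PpoI. Thick ascending limb cells had 62.0 CPM of Cyp4b1 in wild type and 2.30 in PT I-PpoI, and the wild-type level fell to 4.66 CPM when free RNA was subtracted.

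**Figure D2:**
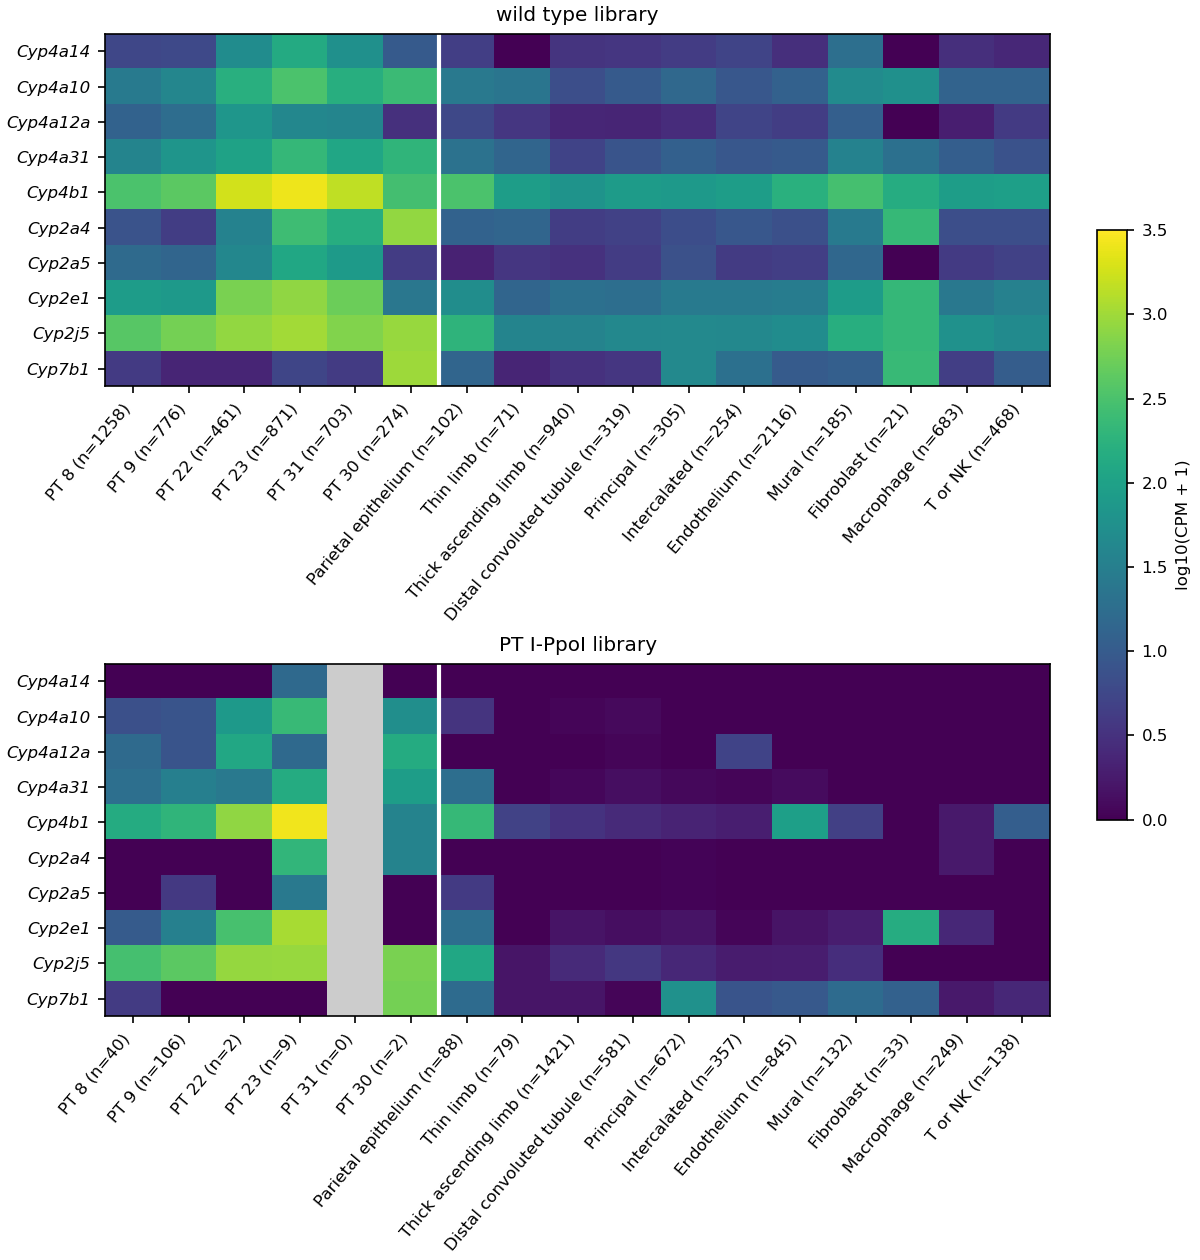
Levels (colour, log10 of CPM + 1) of the members in 6 PT-like clusters (left of the white line) and 11 other classes, by library, with cell numbers. Grey marks a cluster with 0 cells. Outside the PT, Cyp4b1 stands out in parietal epithelium (220 and 321 CPM) and endothelium (94.0 and 164 CPM), and Cyp7b1 in principal cells (58.0 and 43.9 CPM).

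Endothelium held Cyp4b1 at 94.0 CPM (87.2 to 101) and 164 (154 to 175). After free RNA was subtracted these became 98.9 and 92.8 CPM. Within endothelium it was highest in cluster 12, led by Kdr and Esm1 (208 and 191 CPM), and cluster 13, led by Plvap (154 and 238 CPM), and lower in cluster 10, led by Slc14a1 and Sox17 (53.4 and 97.6 CPM). Parietal epithelium held Cyp4b1 at 220 CPM (198 to 244) and 321 (285 to 362), and Cyp2j5 at 120 CPM (104 to 138) and 189 (161 to 220). Which library was higher there turned with the treatment of free RNA, since subtraction with ranked barcodes 45001 to 90000 gave 246 and 129 CPM for Cyp4b1 and 133 and 55.4 CPM for Cyp2j5. Cyp7b1 was read in principal cells of the collecting duct at 58.0 CPM (53.7 to 62.6) and 43.9 (36.4 to 52.4), and in both of their clusters. Intercalated cells of PT I-PpoI held Cyp4a12a at 4.10 CPM (2.92 to 5.61) while Cyp4a14 and Cyp4a10 had 0 UMIs there. The 33 fibroblasts of PT I-PpoI held Cyp2e1 at 147 CPM (105 to 200) and 0 UMIs of Cyp2j5 and Cyp4b1. Only 15.2% of these cells held a Cyp2e1 UMI. The 21 wild-type fibroblasts held Cyp2e1 at 212 CPM (134 to 318) and Cyp2j5 at 212 CPM. Cyp2a4 stood at 221 CPM (142 to 329) and Cyp7b1 at 230.4 CPM (149 to 340) in them. These levels rest on 23 to 25 UMIs per gene, and both fibroblast groups were under the 50 cells asked of a compared group. Cyp2a4 and Cyp7b1 also peaked in the S3-like PT cluster 30, and the fibroblasts of PT I-PpoI held 0 and 3 UMIs of them.

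Between the libraries, every member was lower in the PT-like cells of PT I-PpoI, and the fatty acid hydroxylase gene Cyp4a14 was nearly absent from them. The ratios chose the members and are described without a test. Of the 10 members 9 were lower by 2-fold or more and 0 higher, with a median log2 ratio of -1.73. Of 13094 genes with 10 or more UMIs, 4.72% were lower by 2-fold or more and 16.6% higher, with a median of 0.34. All 10 members passed that minimum. Outside the PT, 10 of 10 members were lower by 2-fold or more in thick ascending limb cells. The count was 9 in intercalated, mural and principal cells, 8 in endothelium and 5 in parietal epithelium. Free RNA was still in these counts, and the share of all genes was not worked out for these classes. In thick ascending limb cells, subtraction with ranked barcodes moved Cyp4b1 from -4.74 to 0.64 and Cyp7b1 from -1.86 to 0.50. The other members had too few counts left there for a ratio. These counts therefore do not show that the members were expressed less in those classes.

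Cyp4a14 had 3 and 1911 UMIs, or 1.44 CPM (0.298 to 4.22) and 57.4 (54.8 to 60.0), a log2 ratio of -5.09 (-7.59 to -3.76). In the whole library, cells and all other barcodes together, it had 3 and 2570 UMIs. Cyp4a10 had levels of 30.8 and 165 CPM and a ratio of -2.41 (-2.80 to -2.06). Cyp4a31 stood at 41.9 and 123 CPM (-1.55) and Cyp4a12a at 14.9 and 33.0 CPM (-1.12; -1.71 to -0.63). For Cyp4b1 the levels were 434 and 1376 CPM and the ratio -1.66 (-1.76 to -1.57). The Cyp4 members thus ran from 2.21 to 39.7 times lower although they lie in 1 block.

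Cyp2a5 was next after Cyp4a14, with 4.33 CPM (1.98 to 8.22) and 55.8 (53.3 to 58.4), a ratio of -3.61 (-4.82 to -2.76). Cyp2a4 stood at 21.2 and 146 CPM (-2.77) and Cyp2e1 at 140 and 434 CPM (-1.63). Cyp7b1 stood at 16.4 and 57.4 CPM (-1.79), and 33 of its 34 UMIs in PT I-PpoI came from the 2 cells of cluster 30, which also held 603 CPM of summed endothelial markers (7 of 8 read). Cyp2j5 was nearest to equal, with 454 and 761 CPM (-0.74; -0.84 to -0.65).

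**Figure D3:**
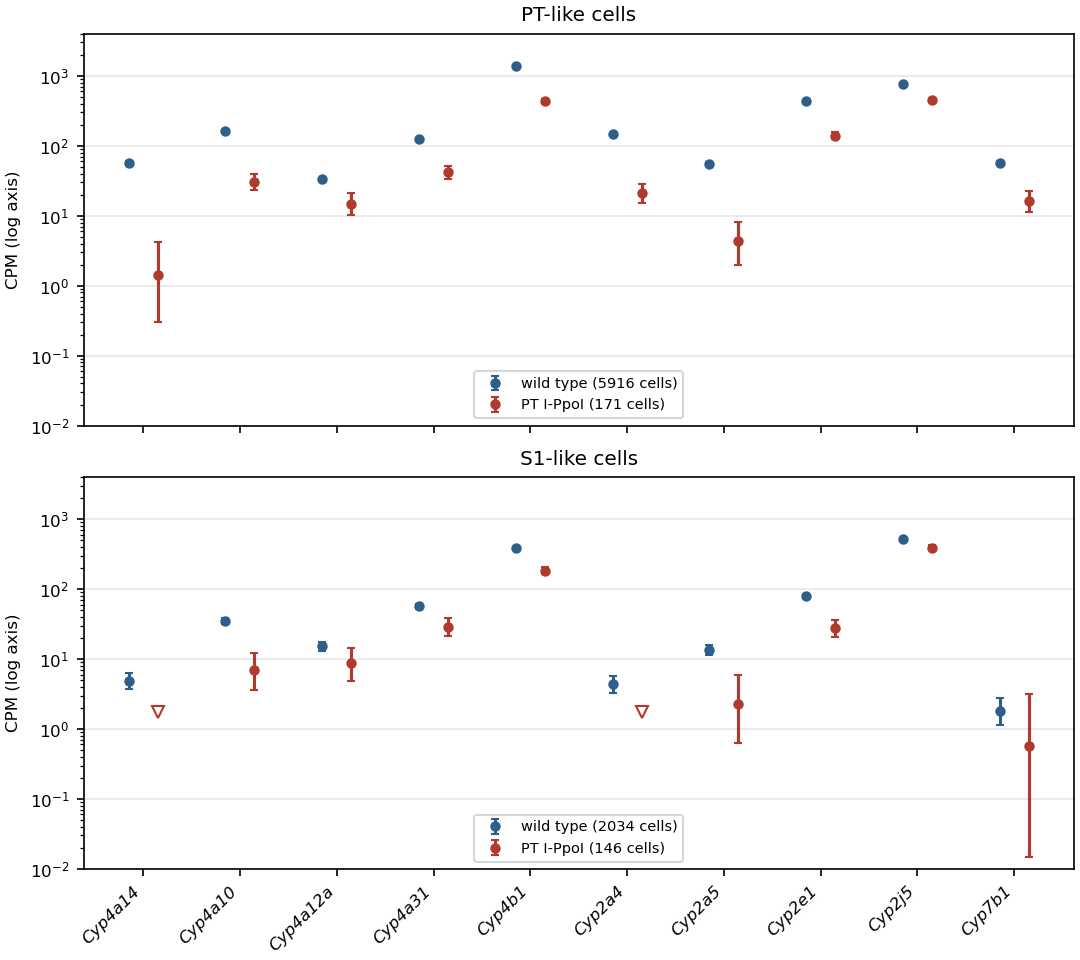
Levels (CPM, log axis) of the members in PT-like cells and in S1-like cells of each library, with 95% Poisson intervals. Open triangles mark 0 UMIs, drawn at the level of 3 counts. In PT-like cells each PT I-PpoI point lies below the wild-type point, most for Cyp4a14 (1.44 against 57.4 CPM) and least for Cyp2j5 (454 against 761 CPM).

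The segment makeup of the PT-like cells moved with these ratios. When wild-type clusters were weighted by their share of PT I-PpoI UMIs (an alternative added after the data were seen), 4 of 10 members were lower by 2-fold or more. These were Cyp4a14 (-3.52), Cyp2a5 (-2.41), Cyp2a4 (-1.29) and Cyp4a10 (-1.23). The other 6 were nearer to 0, with Cyp4a31 at -0.93, Cyp7b1 at -0.74, Cyp4b1 at -0.57, Cyp2j5 at -0.43, Cyp4a12a at -0.35 and Cyp2e1 at -0.22. Under the trimmed mean of M-values (TMM), every PT-like ratio shifted by -0.37 and every S1-like ratio by -0.27, and 10 and 9 of the 10 members were lower by 2-fold or more. TMM moves all genes alike, so more of them pass -1 as well. The share of all genes past 2-fold was not worked out under the weighting or TMM, so these counts have no background beside them.

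Within S1-like cells (146 and 2034), which both libraries held, 7 of 10 members were lower by 2-fold or more and 0 higher, with a median of -1.31 (-1.24 with the 2 genes of 0 UMIs at their bounds). The 7 include Cyp2a4, at background in wild type, and Cyp7b1, on 1 and 22 UMIs. Of 11736 genes, 2.79% were lower by 2-fold or more and 9.04% higher, with a median of 0.25. The interval of the ratio lay below 0 for 9 of 10 members. Taken alone, cluster 9 had 9 of 10 members lower by 2-fold or more (2.90% of its genes were lower and 8.31% higher), of which Cyp2a4 and Cyp7b1 had 0 UMIs in PT I-PpoI and no 2-fold bound. Cluster 8, with 40 cells in PT I-PpoI, had 6 of 10 (7.16% and 14.2%), of which Cyp4a14, Cyp2a4 and Cyp2a5 had 0 UMIs and no 2-fold bound. In cluster 8 Cyp4a12a (0.50) and Cyp7b1 (0.58) lay above 0, with intervals that span 0. The S2 markers, summed, stood at 189 and 598 CPM in these cells and the S1 markers at 8024 and 7260 CPM, and the part of this in the ratios was not tested. When free RNA was subtracted with barcodes ranked 45001 to 90000 (an alternative added after the data were seen), 4 members had fitted ratios past 2-fold, Cyp4a14, Cyp4a10, Cyp2a5 and Cyp2e1. Cyp4b1 moved little (-1.05 to -0.97), and Cyp2a4 and Cyp7b1 had too few counts left for a ratio.

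Cyp4a14 had 0 and 58 UMIs in S1-like cells, at least 2.80-fold lower by a floor of 3 counts in the sum. Its wild-type level fell from 4.83 to 2.55 CPM under that ranked subtraction, near the PT I-PpoI floor of 1.73 CPM, so no 2-fold bound was left. Cyp2a4 had 0 and 53 UMIs, at least 2.56-fold lower, but its wild-type level of 4.42 CPM lay below that of T or NK cells (5.91 CPM) and fell to 2.23 CPM after subtraction of free RNA. Cyp4a10 stood at 6.91 CPM (3.57 to 12.1) and 35.3 (32.0 to 38.8), a ratio of -2.29 (-3.31 to -1.53). Cyp2a5 stood at 2.30 and 13.6 CPM (-2.39; -4.45 to -1.18) and Cyp2e1 at 27.6 and 78.6 CPM (-1.49; -1.96 to -1.09). For Cyp4b1 the levels were 184 and 382 CPM and the ratio -1.05 (-1.22 to -0.89). Cyp4a31 (-0.96), Cyp4a12a (-0.77) and Cyp2j5 (-0.42; 392 and 525 CPM) were less than 2-fold lower. Cyp7b1 had 1 and 22 UMIs, too few to place (-1.12; -7.04 to 0.96).

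**Figure D4:**
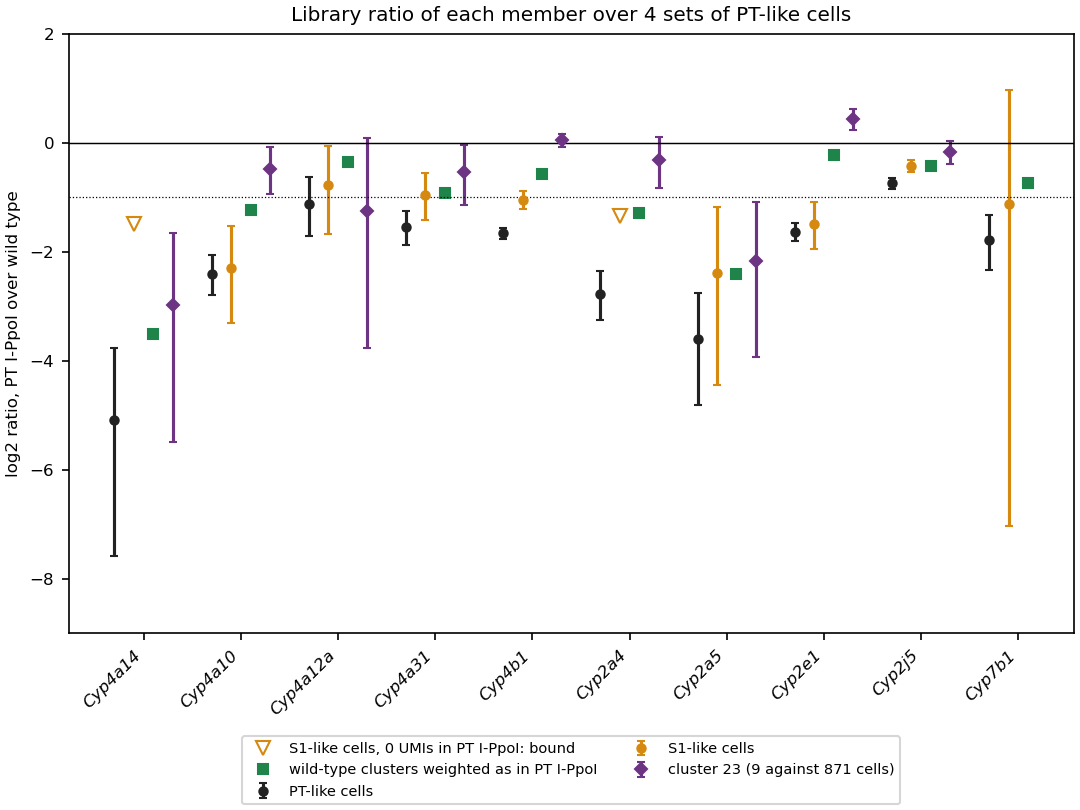
Log2 ratio of each member over PT-like cells, S1-like cells, PT-like cells with wild-type clusters weighted as in PT I-PpoI, and cluster 23. Bars are 95% counting intervals (none for the weighted values), open triangles are bounds for 0 UMIs, and Cyp7b1 has 0 UMIs in cluster 23 of PT I-PpoI and no point. Cyp4a14 and Cyp2a5 lie below -1 for all 4 sets, while Cyp4b1 and Cyp2e1 move to 0.04 and 0.43 in cluster 23.

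The same members were set side by side in cluster 23, where wild-type levels peaked and PT I-PpoI had 9 cells (median 21516 UMIs) against 871 (median 10258). Here the order of the ratios was uneven. Cyp4b1 stood at 2643 CPM (2424 to 2876) and 2571 (2540 to 2602), and all 9 PT I-PpoI cells held its UMIs. Cyp2e1 was the higher in PT I-PpoI, with 1117 and 833 CPM (0.43; 0.23 to 0.61), and Cyp2j5 at 906 and 1024 CPM (-0.17; -0.40 to 0.03). Cyp4a10 (-0.48; -0.95 to -0.08), Cyp2a4 (-0.32; -0.82 to 0.10) and Cyp4a31 (-0.53; -1.14 to -0.03) were within 2-fold. Cyp4a12a stood at 14.8 and 41.1 CPM (-1.26; -3.76 to 0.08), on 3 UMIs from 2 cells. Cyp4a14 stood at 14.8 CPM (3.04 to 43.1) and 136, a ratio of -2.98 (-5.49 to -1.66), from 3 of the 9 cells. Cyp2a5 stood at 24.6 CPM (7.99 to 57.4) and 122, a ratio of -2.18 (-3.94 to -1.09), from 4 of the 9 cells. The 9 cells share 1 library, and 4 cells or fewer carry the Cyp4a14 and Cyp2a5 values.

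To compare shares of S1-like cells in which a gene was read, each cell was thinned to 2000 UMIs, which left out 4 and 506 shallower cells. Cyp2j5 was read in 46.5% of cells (Clopper-Pearson 95% interval 38.1 to 55.0) and 58.9% (56.4 to 61.4), against 0% and 7.02% of T or NK cells, which should lack it. Cyp4b1 was read in 20.4% (14.1 to 28.0) and 41.8% (39.3 to 44.3), against 0.763% and 16.9% of T or NK cells. Cyp2e1 was read in 2.82% (0.773 to 7.06) and 13.4% (11.7 to 15.2), against 0% and 6.74%. Intervals overlapped for Cyp4a10, at 2.11% (0.438 to 6.05) and 4.97% (3.94 to 6.19), and Cyp4a31, at 6.34% (2.94 to 11.7) and 9.03% (7.64 to 10.6). They also overlapped for Cyp4a12a (2.11% and 2.75%) and Cyp2a5 (0.704% and 2.09%). Cyp2a4 and Cyp7b1 were read in 0% of PT I-PpoI cells (limit of 3 counts 2.11%) and in 0.982% and 0.131% of wild-type cells, with overlapping intervals. Without thinning the shares were 87.0% and 72.1% for Cyp2j5, 48.6% and 57.2% for Cyp4b1, and 14.4% and 25.4% for Cyp2e1, at median depths of 11074 and 4037 UMIs (T or NK cells 4207 and 2483). Cyp4a14 was read in 0 of 142 thinned cells, which allows a share of up to 2.11% by the limit of 3 counts, and in 0.524% of wild-type cells, so its share was at background in both.

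Other P450 genes were counted beside the members, which were chosen for being lower. Of 88 other P450 genes, 22 had 30 or more UMIs in PT-like cells, and of these 5 were lower by 2-fold or more and 6 higher, with a median of 0.08 (all genes at that minimum: 4.04% lower, 12.2% higher, median 0.31). In S1-like cells 6 of 19 were lower and 2 higher, with a median of -0.16 (all genes: 1.71% lower, 5.12% higher, median 0.24). The lower genes included Cyp2d12, Cyp2d9, Cyp2j11, Cyp2j13 and Cyp4a12b. In wild type these were highest in clusters 30 (Cyp2d9, Cyp2j11), 22 (Cyp2d12, Cyp4a12b) and 23 (Cyp2j13), of which PT I-PpoI held 2, 2 and 9 cells. The part of segment makeup in their ratios was not tested. The lowest ratios were those of Cyp2j11 (24.1 and 88.1 CPM, -1.86), Cyp4a12b (-1.81; its 3′ end was 96.0% identical to that of Cyp4a12a) and Cyp2d12 (46.2 and 151 CPM, -1.71). The highest were those of Cyp2c69 (1.61), Cyp2s1 (1.44) and Cyp2u1 (1.42), which rest on 7, 6 and 19 UMIs in PT I-PpoI. Cyp2d26, highest in the S1-like cluster 9 of wild type, had 159 and 102 CPM (0.64; 0.47 to 0.80). Its relatives Cyp2d9 (-1.11) and Cyp2d12, which peaked in clusters 30 and 22, were lower. Cyp2j13 stood at 44.7 and 112 CPM (-1.31).

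The lists that follow are read against all genes with 10 or more UMIs, of which 4.72% were lower and 16.6% higher (median 0.34) in PT-like cells, and 2.79% and 9.04% (median 0.25) in S1-like cells. Of 10 electron partners, 1 was lower by 2-fold or more and 0 higher in PT-like cells, with a median of -0.02, and in S1-like cells 0 were lower and 1 higher, with a median of 0.13. The gene lower in PT-like cells was Cyb5a, which encodes the microsomal cytochrome b5, at 654 and 1991 CPM (-1.61; -1.68 to -1.53). The reductase gene Por stood at 87.1 and 139 CPM (-0.67). Of 8 heme synthesis genes counted 0 were past 2-fold in either direction, with a median of 0.14.

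Among fatty acid targets of PPARA, 29 of 30 genes were counted and 10 were lower by 2-fold or more and 1 higher in PT-like cells, with a median of -0.62 against 0.34 for all genes. In S1-like cells 5 of 29 were lower and 0 higher, with a median of -0.29 against 0.25. Among the lower genes were Mogat1, a monoacylglycerol acyltransferase whose wild-type level peaked in cluster 30 (-2.60), Pank1, a coenzyme A synthesis kinase (-1.67), and the peroxisomal thiolase Acaa1b (-1.58). Acaa1b is a leading gene of cluster 31, and Slc27a2 of the same list peaked in wild-type cluster 30. PT I-PpoI held 0 cells in cluster 31 and 2 in cluster 30, against 703 and 274 in wild type. The part of segment makeup in the counts and ratios of this list was not tested. Of 23 nuclear receptors and regulators counted 2 were lower by 2-fold or more and 1 higher, with a median of 0.36, so their median was near that of all genes. These were the fatty acid receptor gene Ppard (12.0 and 36.4 CPM, -1.57), the estrogen receptor gene Esr1 (-1.02; -3.08 to 0.20, on 4 UMIs) and, higher, the dioxin receptor gene Ahr (1.05; 0.05 to 1.84), with the coactivator gene Ppargc1a at 0.92.

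Of 29 sex-dependent kidney genes counted, 14 were lower by 2-fold or more and 3 higher in PT-like cells, with a median of -0.92, and in S1-like cells 11 of 27 were lower and 1 higher, with a median of -0.78. Kap, an androgen-dependent kidney gene, stood at 6477 and 30559 CPM (-2.24). The organic anion transporter gene Slco1a6 (41.4 and 169 CPM, -2.02) and the immunoglobulin receptor gene Pigr (-1.80) were lower, and the carrier gene Slc22a29 was higher (28.9 and 6.33 CPM, 2.20). Kap, like Inmt of the same list, is a leading gene of the PT-like clusters 23 and 31. Other such genes on the list were Slco1a1 and Slc7a13 (cluster 23), Acsm2 (22), Slc22a30 and Atp11a (32), and Slc22a7, Napsa, Acsm3 and Serpina1f (30). PT I-PpoI held 9 cells in cluster 23, 8 in cluster 32, 2 each in clusters 22 and 30, and 0 in cluster 31. The part of this in the counts and ratios was not tested. Of 9 eicosanoid and epoxide genes counted, 1 was lower and 4 higher in PT-like cells, with a median of 0.54. In S1-like cells 0 of 6 were lower and 1 higher, and the median of -0.19 had the other sign. In PT-like cells they included the epoxide hydrolase gene Ephx1 (7.22 and 1.59 CPM, 2.22) and the glutathione transferase gene Gsta3 (-1.03). The 4 Y-linked genes counted were within 2-fold (median 0.38).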

How the data were processed

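For each library the authors deposited a matrix of UMI counts over all barcodes, from 10x 3′ v3.1 chemistry per the labels' protocols. Per the submitters' processing notes, Cell Ranger 3.1, Seurat 3 and mm10 were used, while the matrix header names Cell Ranger 4. The effect of that mismatch on the counts is not known.

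Barcodes were called as cells by depth, or from 500 UMIs on by a multinomial test against barcodes ranked 45001 to 90000 (10000 simulations, rate 0.01). Cells with under 200 genes or over 50% mitochondrial UMIs and Scrublet doublets (69 and 271) were left out. Cells were clustered with scanpy 1.11.5 (2000 variable genes without P450 genes, 30 components, 15 neighbours, Leiden resolution 1) and named from marker lists. A PT segment name needed a lead of 0.5 in mean standardised marker level, set after the data were seen. UMIs were summed by group, and log2 ratios carry a prior of 0.5 count. Each group being 1 library, the groups were not tested against each other, and no estimate of the spread between libraries exists. TMM factors came from edgeR 4.0.16. Free RNA was estimated from markers of unrelated classes with barcodes of up to 100 UMIs and subtracted only as an alternative. Ratios and subtraction were tested on simulated data.

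Positions come from GENCODE M21. All 10 members were named. Of the other P450 genes the 6 largest ratios and the 5 highest levels were named, of each gene list up to 4 genes furthest from 0, and for each member 3 like genes. A few genes that this rule names are not reported here. The members and lists were chosen with earlier results of these data known. In all 10 planned and 4 added alternatives were run.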

Additional observations from a re-analysis of the deposited data

Results flagged for a closer look

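Cyp7b1 differed in sign between 2 tubule cell classes. It was lower in the PT-like cells of PT I-PpoI (16.4 and 57.4 CPM, log2 ratio -1.79) and higher in principal cells (58.0 and 43.9 CPM, 0.40, interval 0.12 to 0.69). Of its 34 PT-like UMIs in PT I-PpoI, 33 came from the 2 cells of cluster 30, which had 274 cells in wild type. The PT-like ratio was -0.74 with wild-type clusters weighted as in PT I-PpoI, and the S1-like interval spanned 0 (-7.04 to 0.96). After free RNA was subtracted the principal cell ratio was 0.31. With 1 library per group the difference between the classes was not tested, and the cause was not tested.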

How the results depend on the processing

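The members' ratios kept their sign in all 130 PT-like and 108 S1-like values over 13 and 11 alternatives, of which 28 and 10 lay outside the main counting interval. The minimum of 10 UMIs changed no ratio and TMM moved all ratios further below 0, so neither could turn a sign. Equal segment weights repeated the S1-like ratios, and the members were chosen with this difference known. The counts of members lower by 2-fold or more moved by over 1.5 times under 2 alternatives. Weighting wild-type clusters as in PT I-PpoI gave 4 of 10 in PT-like cells in place of 9, and subtracting free RNA with ranked barcodes gave 4 in S1-like cells in place of 7, since Cyp4b1 moved from -1.05 to -0.97 and Cyp2a4 and Cyp7b1 had no ratio left. Under the other alternatives the counts were 7 to 10 in PT-like and 6 to 9 in S1-like cells, and 0 members were higher. Under the weighting, TMM and free RNA subtraction the share of all genes past 2-fold was not worked out. Weighting segments equally left S1-like cells alone, since no other segment had 50 cells in each library. Without the shallow cluster 7 the PT-like count was 9. Where 10 members were highest in a PT-like cluster of wild type, this held under the 5 alternatives that reclustered the cells. No paired analysis was possible because each group had 1 library. The low number of S1-like cells in PT I-PpoI (146 against 2034) limits Cyp4a14, Cyp2a5, Cyp2a4 and Cyp7b1, which had 0 to 4 UMIs in S1-like cells.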
